A study of Arabidopsis thaliana with 18 samples.

Results

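The shared rises are the transcripts whose level was higher after 60 min of PSII light than before it in *stn7* plants and in wild-type plants alike. A probe set, the group of probes on an Affymetrix array that reports 1 transcript, was a member when its group mean at 60 min exceeded that at 0 min by at least 0.8 on the log2 scale in both genotypes. The members were thus chosen by measured values, the group means at 0 and 60 min. This limit corresponds to a 1.74-fold difference. Of 22746 probe sets, 156 passed it. The rule leaves out a set of calcium, TIR-domain, chaperone and regulator genes and the organelle-encoded genes. This took away 11 of them and left 145 members, of which 51 carried 1 gene in the annotation used here, 1 carried several genes, and 93 were not listed in it. Unlisted members made up 64.1% of the members and 38.4% of all probe sets, so that a gene meant to be left out could still be among them. The 0 and 60 min values chose the members, and the rises themselves are therefore described here without a test.

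Each of 18 arrays was hybridised with RNA from rosette leaves of a separate pool of 250 or more *Arabidopsis thaliana* plants aged 23 days. The mutant was *stn7*, a knockout (SALK_073254) in the Col-0 background, and the wild type (WT) was Col-0. All plants first grew for 20 days in white light at 22 °C. Each genotype was sampled under PSI light (0 min) after 3 days of acclimation to it, and 30 and 60 min after a shift to PSII light, with 3 biological replicates in each of these 6 groups. No samples of plants left in PSI light for 30 or 60 min are among the 18, and within a genotype the effects of the new light and of the hour of sampling cannot be told apart. No probe set was annotated to the STN7 locus, and the loss of its transcript could not be checked.

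STN7 is a protein kinase of the thylakoid membrane. It is activated when the plastoquinone pool between the photosystems is reduced, as in light that mainly excites photosystem II, and it phosphorylates light-harvesting proteins that then move to photosystem I. A change in the balance of the photosystems also alters nuclear transcripts, and the *stn7* line serves as the control that lacks the kinase branch of this signal. The shift between such light sources also changes light quality for photoreceptors such as phytochromes and cryptochromes. Transcripts that rise quickly in leaves after a change of light, touch or temperature often encode cell wall enzymes, receptor kinases, transcription factors, transporters and stress proteins.

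The first principal component of the deviations from the group means held 28% of the within-group variance. Scores on it were 43.0 and 45.7 in WT 0 min replicates 1 and 3, against -25.3 to 28.8 in the other arrays. These scores keep the differences between group means. The WT 0 min mean was 32.9, and replicate 2, at 9.9, lay farthest from it. The SD of the scores ran from 4.6 in WT at 60 min to 20.4 in *stn7* at 0 min. In WT at 0 min it was 20.0. The scores thus do not show that replicates 1 and 3 deviate more than other replicates. The main WT counts and medians below are given with and without these 2 arrays, as an alternative chosen by score. Without them WT at 0 min is 1 array, replicate 2, so that such values have no replicate check, and tests then take the spread from the other groups and assume that the lone array varies like them. The difference between 3' and 5' probe sets of the Arabidopsis control transcripts, which reflects RNA integrity, was larger at 60 min. It was 1.67 ± 0.05, 1.61 ± 0.05 and 1.85 ± 0.15 log2 units (SD, n = 3) at 0, 30 and 60 min in *stn7*, and 1.59 ± 0.07, 1.55 ± 0.08 and 1.73 ± 0.07 in WT. Its part in the rises was not tested, and it served as a covariate in the tests at 30 min alone. The array medians lay between 6.10 and 6.31. Centring every array on 1 median would lower each WT difference between 60 and 0 min by 0.12, and 125 members would remain past the limit by that scaling, 124 of them from the 145. The leaf gene RCA, the activase of the enzyme Rubisco, was bright at 13.06 in *stn7* and 12.96 in WT at 0 min. Of the guard cell markers, 2 were measured, and FAMA (FMA in the annotation) was higher in *stn7* than in WT at 30 min by 0.59 (limma adjusted p = 0.0222). GC1 (AT1G22690) lay below its midpoint in *stn7* at 30 min by the test described below (-0.98, limma adjusted p = 0.00171). Their part in the members' values was not tested. In leaf RNA, fewer cells of a type and less RNA per cell cannot be told apart. None of the listed markers of vasculature, epidermis, root, flower, seed or dividing cells had an annotated probe set.

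Between 0 and 60 min the members differed by a median of 1.08 log2 units in *stn7*, with a range of 0.80 to 2.44. In WT the median was 1.27, with a range of 0.80 to 3.19. Over all 22746 probe sets the medians were 0.01 in *stn7* and -0.05 in WT. All 3 arrays at 60 min lay above all 3 at 0 min for 135 members in *stn7* and 145 in WT, as they did for 16.2% and 20.1% of all probe sets. At 30 min the counts against 0 min were 75 and 102, beside 13.6% and 18.2% of all probe sets, and nothing is read from these counts because the rule used the 0 min arrays. The difference was larger in *stn7* for 53 members and larger in WT for 92. Rises of this size were rarer in *stn7*, where 366 probe sets reached the limit, than in WT, where 1407 did. The 156 that reached it in both are 42.6% of the first set and 11.1% of the second. Set against WT 0 min replicate 2 alone, 903 probe sets reached the limit in WT, and the 185 that then reached it in both genotypes are 50.5% of the *stn7* set and 20.5% of the WT set. Without WT 0 min replicates 1 and 3 the WT median of the members was 1.34, the difference was larger in WT for 99 of them, and 141 of the 145 stayed past the limit. At 0 min the members had a median level of 6.99 in *stn7* and 6.77 in WT, above the medians of all probe sets of 6.24 and 6.14. By mean signal over the 18 arrays, 37 of the 145 lay under the median of all probe sets and only 1 lay in the dimmest 30%. That mean includes the 60 min arrays, which the rule requires to be high. Some members were dim at 0 min, such as 266841_at with means of 3.64 in *stn7* and 3.58 in WT. No filter on signal was applied. Because the limit was set on group means, a difference could come mainly from 1 array. The unlisted probe set 266901_at had *stn7* values of 3.68, 4.18 and 4.06 at 0 min and 6.58, 3.97 and 4.22 at 60 min.

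**Figure D1:**
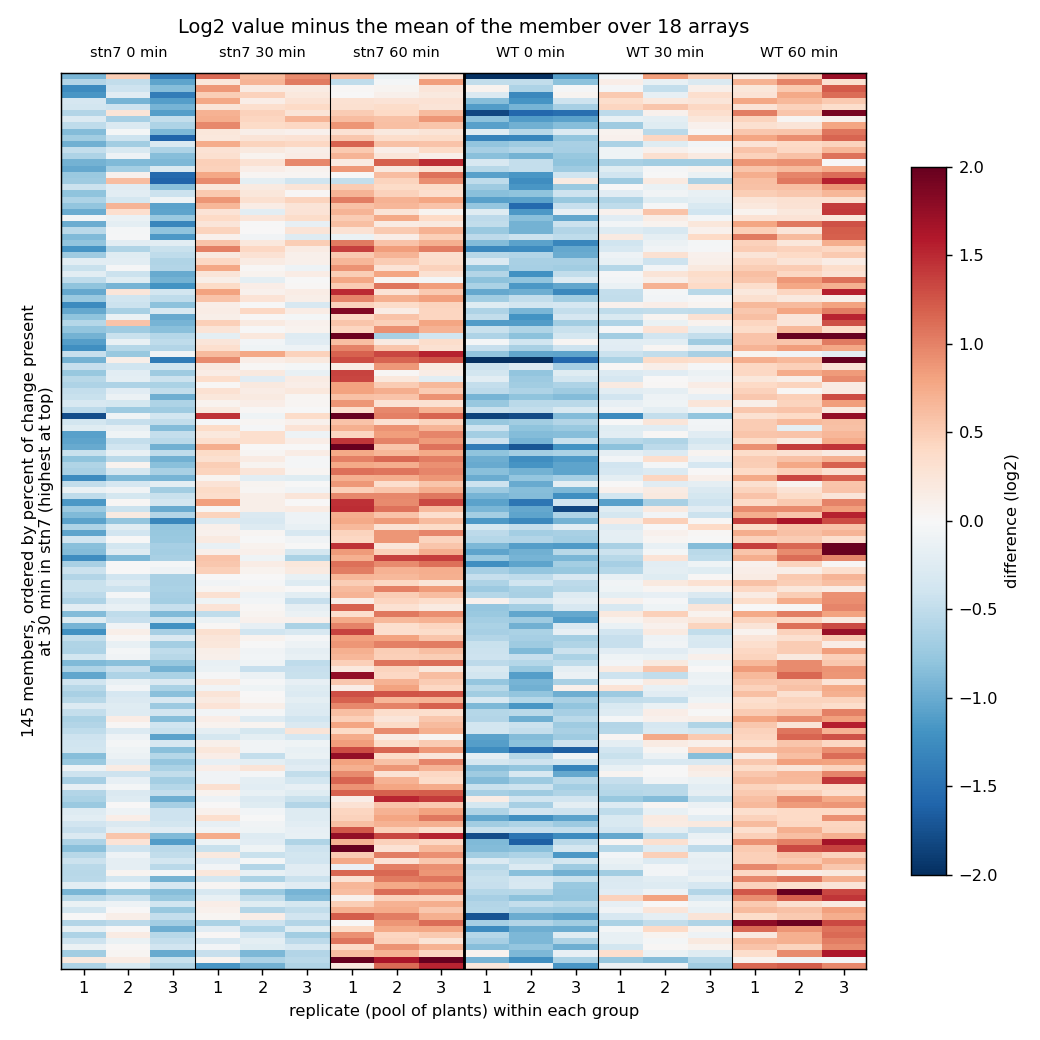
Log2 value of each of the 145 members (rows) in each of the 18 arrays (columns), minus the mean of that member over the arrays, with *stn7* groups left of WT groups. Members are mostly blue at 0 min and red at 60 min in both genotypes, as the rule requires. The median share of the change at 30 min was 45.2% in *stn7* and 46.5% in WT. For most members the 30 min mean lay between the other 2 means. It lay below the 0 min mean for 5 members in *stn7* and 5 in WT, and above the 60 min mean for 6 in *stn7* and 1 in WT.

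The members nearest to the limit on the inner side were 3 probe sets without an annotated gene, whose smaller differences were 0.8003, 0.8022 and 0.8049. Just outside lay AT3G21690, with 0.92 in *stn7* and 0.7993 in WT, a probe set with no listed gene at 0.7992, and IQD23, a calmodulin-binding protein gene, with 0.79 in *stn7* and 1.17 in WT. The largest *stn7* difference was that of a probe set with no listed gene, 245757_at, with 2.44 in *stn7* and 2.32 in WT. Its log2 values in *stn7* were 4.34, 6.03 and 5.75 at 0 min, 7.56, 6.02 and 6.49 at 30 min, and 9.0003, 7.13 and 7.29 at 60 min. In WT they were 4.26, 4.33 and 5.25 at 0 min, 4.85, 5.65 and 5.33 at 30 min, and 6.42, 6.51 and 7.88 at 60 min. The 60 min arrays of both genotypes lay above all their 0 min arrays for it. The largest WT difference was that of the unlisted probe set 248964_at, with 1.99 in *stn7* and 3.19 in WT.

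Of the 51 members with 1 gene, 37 encode proteins whose general role is known, and they are described by role, in groups formed after the members were known. The first group of 6 acts in the cell wall and at the cell surface. ATPMEPCRB (PME41) encodes a pectin methylesterase, an enzyme that removes methyl groups from wall pectin. Its log2 values in *stn7* were 7.06, 7.32 and 6.58 at 0 min, 7.65, 7.34 and 7.26 at 30 min, and 8.71, 8.58 and 8.28 at 60 min. The WT values were 6.18, 5.88 and 5.77 at 0 min, 7.03, 7.46 and 7.87 at 30 min, and 8.06, 8.09 and 8.35 at 60 min. The 3 times did not overlap in WT, whereas in *stn7* the 0 and 30 min arrays did, with a higher 0 min level in *stn7*. The differences between 60 and 0 min were 1.54 in *stn7* and 2.23 in WT. AT5G19240 encodes a glycoprotein held at the plasma membrane by a lipid anchor. In *stn7* it had 8.13, 9.001 and 7.86 at 0 min, 9.09, 8.90 and 8.43 at 30 min, and 10.05, 9.40 and 9.50 at 60 min. In WT it had 8.43, 8.11 and 8.78 at 0 min, 8.93, 9.15 and 9.51 at 30 min, and 9.33, 10.17 and 10.39 at 60 min. Replicate pools of AT5G19240 varied widely, with 0 and 30 min overlapping in *stn7* and 30 and 60 min overlapping in WT. XTH18 encodes a xyloglucan endotransglucosylase, which cuts and rejoins wall xyloglucan, and differed by 0.94 in *stn7* and 1.52 in WT between 60 and 0 min. At 30 min its mean was almost at the 0 min level in *stn7* (-0.418% of the change) but not in WT (47.6%). AT5G41900, of the alpha/beta hydrolase family, differed by 1.08 in *stn7* and 1.20 in WT. The median 60 min minus 0 min difference of these 6 genes was 1.01 in *stn7* and 1.36 in WT, with 50% or more of the change present at 30 min for 1 of 6 in *stn7* and 3 of 6 in WT.

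The remaining 2 genes of the cell wall group are AT5G15740, which encodes a rhamnosyltransferase of pectin synthesis, and AT1G75900, which encodes an extracellular lipase of the GDSL family. AT5G15740 had log2 values in *stn7* of 7.30, 7.47 and 7.17 at 0 min, 7.54, 7.39 and 7.29 at 30 min, and 8.17, 8.27 and 8.34 at 60 min. In WT the values were 7.05, 7.19 and 6.76 at 0 min, 7.23, 7.25 and 7.17 at 30 min, and 7.97, 7.85 and 7.77 at 60 min. At 30 min the arrays of AT5G15740 still overlapped those at 0 min in both genotypes. For AT1G75900 the *stn7* values were 8.80, 8.83 and 8.53 at 0 min, 9.06, 8.69 and 8.57 at 30 min, and 9.42, 9.62 and 9.65 at 60 min. Its WT values were 8.33, 8.46 and 8.38 at 0 min, 8.77, 8.93 and 8.84 at 30 min, and 9.44, 9.25 and 9.11 at 60 min. The 30 min arrays of AT1G75900 overlapped the 0 min arrays in *stn7* and lay above them in WT. The differences of AT5G15740 between 60 and 0 min were 0.95 in *stn7* and 0.86 in WT. Its WT difference without WT 0 min replicates 1 and 3 was 0.68, below the limit.

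Receptors and kinases formed a group of 4. AT1G53430, AT4G08850 and AT1G51805 encode kinases with extracellular leucine-rich repeats, of which AT4G08850 is the immune and wall-sensing receptor MIK2, and AT1G76360 encodes a cytoplasmic kinase. AT1G51805 had log2 values in *stn7* of 8.24, 8.38 and 7.98 at 0 min, 8.30, 8.11 and 8.04 at 30 min, and 8.75, 9.26 and 9.04 at 60 min. WT arrays gave 7.51, 7.58 and 7.37 at 0 min, 7.99, 8.38 and 8.42 at 30 min, and 8.93, 8.79 and 9.31 at 60 min. Its 30 min arrays overlapped the 0 min arrays in *stn7* and lay apart from them in WT, where the 0 min level was lower. The differences between 60 and 0 min were 0.94 in *stn7* and 1.70 in WT for AT1G53430, 0.98 in *stn7* and 0.84 in WT for AT4G08850 and 0.88 in *stn7* and 1.27 in WT for AT1G76360. The median 60 min minus 0 min difference of these 4 genes was 0.91 in *stn7* and 1.40 in WT. At 30 min, 50% or more of the change was present for 1 of 4 in *stn7* and 3 of 4 in WT.

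Regulators of transcription and light signalling formed another group of 4. AT4G32800 and AT5G07580 encode transcription factors of the AP2/ERF family, AT1G78410 a VQ-motif protein, a partner of WRKY factors, and AT3G44450 is BIC2, an inhibitor of the blue-light receptors called cryptochromes. AT4G32800 had log2 values in *stn7* of 6.07, 6.73 and 6.71 at 0 min, 7.64, 7.21 and 7.19 at 30 min, and 8.28, 7.85 and 7.61 at 60 min. Its values in WT were 6.83, 6.65 and 6.89 at 0 min, 7.07, 7.34 and 7.12 at 30 min, and 7.98, 8.13 and 8.08 at 60 min. The 3 times of AT4G32800 were apart in WT, and in *stn7* the 30 min arrays already reached the lowest 60 min array. Its share of the change at 30 min was 59.7% in *stn7* and 30.5% in WT. BIC2 (AT3G44450) differed by 0.91 in *stn7* and 1.95 in WT between 60 and 0 min, and 7.71% of its change was present at 30 min in *stn7*, against 55.4% in WT. At 30 min its *stn7* minus WT difference was -0.82 ± 0.22 (limma adjusted p = 0.0677), which did not pass the threshold. AT5G07580 differed by 0.98 in *stn7* and 1.25 in WT, and AT1G78410 by 0.87 in *stn7* and 1.07 in WT. The median 60 min minus 0 min difference of these 4 genes was 0.94 in *stn7* and 1.26 in WT, with 50% or more of the change present at 30 min for 2 of 4 in *stn7* and 1 of 4 in WT.

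Stress and defence proteins formed a group of 6. AT4G10270 encodes a small wound-responsive protein whose transcript is also known to rise at low oxygen. Its log2 values in *stn7* were 4.23, 4.40 and 4.29 at 0 min, 4.83, 4.40 and 4.22 at 30 min, and 5.77, 6.26 and 6.17 at 60 min. In WT they were 4.57, 4.58 and 4.37 at 0 min, 4.92, 5.05 and 4.56 at 30 min, and 6.39, 7.14 and 6.48 at 60 min. The 0 and 30 min arrays overlapped in both genotypes, and the 60 min arrays lay above all of them. Its 0 min means, 4.31 in *stn7* and 4.51 in WT, lay toward the lower end of the array's scale. The part of dim signal in its low 30 min values was not tested. AT3G09440 encodes HSC70-3, a cytosolic chaperone of the HSP70 family. In *stn7* it had 9.23, 9.40 and 8.82 at 0 min, 9.42, 9.13 and 9.34 at 30 min, and 10.06, 10.80 and 10.84 at 60 min. In WT it had 9.33, 9.43 and 9.32 at 0 min, 9.48, 9.56 and 9.64 at 30 min, and 10.73, 10.84 and 10.48 at 60 min. The 30 min arrays stayed close to the 0 min level in both genotypes, overlapping it in *stn7*. AT2G20560, a DnaJ-type partner of HSP70 chaperones, differed by 1.08 in *stn7* and 1.24 in WT between 60 and 0 min. Only 28.7% of that change was present at 30 min in *stn7* and 6.56% in WT.

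AT2G24600, an ankyrin-repeat protein gene, had log2 values in *stn7* of 6.17, 6.68 and 6.16 at 0 min, 6.77, 6.64 and 6.48 at 30 min, and 8.01, 7.54 and 7.21 at 60 min. The WT values were 5.98, 6.11 and 6.31 at 0 min, 6.39, 6.77 and 6.71 at 30 min, and 7.47, 7.49 and 8.27 at 60 min. In *stn7* the 0 and 30 min arrays overlapped, and in WT the 3 times were apart. AT4G36010, of the thaumatin family of pathogenesis-related proteins, differed by 1.31 in *stn7* and 0.91 in WT. Its *stn7* arrays read 5.13, 5.86 and 5.41 at 0 min and 7.73, 6.36 and 6.23 at 60 min, so that replicate 1 was the highest by far. AT2G20142, with a TIR domain, differed by 0.96 in *stn7* and 0.86 in WT, and its WT mean at 30 min lay below that at 0 min (-28.4% of the change, against 59.9% in *stn7*). The median 60 min minus 0 min difference of these 6 genes was 1.28 in *stn7* and 1.28 in WT. At 30 min, 50% or more of the change was present for 1 of 6 in *stn7* and 0 of 6 in WT.

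Transporters formed a group of 5, and the median difference was 1.33 in *stn7* and 0.92 in WT. GTR1, which imports glucosinolates into cells, differed by 1.23 in *stn7* and 0.92 in WT. OCT5, of the organic cation and carnitine transporter family, differed by 1.33 in *stn7* and 0.90 in WT. AT2G16660 and AT4G34950, both of the major facilitator superfamily, differed by 0.89 in *stn7* and 1.17 in WT and by 1.38 in *stn7* and 0.84 in WT. The WT difference of AT4G34950 without WT 0 min replicates 1 and 3 was 0.70, below the limit. AT1G61890 encodes an efflux protein of the MATE family. Its log2 values in *stn7* were 8.77, 9.35 and 9.27 at 0 min, 10.15, 10.16 and 9.95 at 30 min, and 11.25, 10.82 and 10.66 at 60 min. WT arrays gave 9.41, 8.88 and 9.37 at 0 min, 9.27, 9.22 and 9.45 at 30 min, and 10.20, 9.996 and 10.55 at 60 min. The 30 min arrays of AT1G61890 were above the 0 min arrays in *stn7* but overlapped them in WT. It differed by 1.78 in *stn7* and 1.03 in WT between 60 and 0 min. Of the transporter genes, 3 of 5 in *stn7* and 2 of 5 in WT had 50% or more of the change at 30 min.

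Enzymes of metabolism and proteolysis formed a group of 8. AT2G36970 encodes a glycosyltransferase, UGT86A1, that uses UDP-sugars. Its log2 values in *stn7* were 5.58, 5.94 and 5.56 at 0 min, 5.94, 6.51 and 6.32 at 30 min, and 6.78, 7.50 and 7.37 at 60 min. Its values in WT were 5.70, 5.41 and 5.42 at 0 min, 6.64, 6.92 and 6.52 at 30 min, and 7.21, 7.47 and 7.25 at 60 min. The 3 times were apart in WT, and in *stn7* the lowest 30 min array lay at the level of the highest 0 min array. AT4G30470 and AT2G23910 encode relatives of cinnamoyl-CoA reductase, an enzyme of lignin synthesis. AT4G30470 had 8.54, 8.69 and 8.59 at 0 min, 9.39, 9.15 and 9.27 at 30 min, and 9.996, 9.9999 and 10.09 at 60 min in *stn7*. In WT it had 8.10, 8.16 and 7.81 at 0 min, 8.66, 9.23 and 8.68 at 30 min, and 9.60, 9.42 and 9.27 at 60 min. Its 3 times were apart in both genotypes, and *stn7* arrays were higher than WT arrays at 0 and 60 min. AT2G23910 differed by 0.88 in *stn7* and 1.26 in WT.

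The aspartyl protease gene AT4G16563 had log2 values in *stn7* of 5.90, 6.75 and 5.31 at 0 min, 6.94, 5.93 and 6.04 at 30 min, and 7.95, 7.53 and 7.73 at 60 min. In WT they were 4.41, 4.72 and 4.94 at 0 min, 5.16, 5.68 and 6.06 at 30 min, and 6.67, 6.79 and 6.91 at 60 min. Its 3 times were apart in WT, whereas the 0 and 30 min arrays overlapped in *stn7*, where replicates spread widely. AT2G39710, of the same protease family, differed by 1.28 in *stn7* and 0.93 in WT. OPCL1, a CoA ligase of jasmonate synthesis, differed by 0.99 in *stn7* and 1.41 in WT, and WSD1, a wax ester synthase, by 0.82 in *stn7* and 0.85 in WT. The WT difference of WSD1 without WT 0 min replicates 1 and 3 was 0.68, below the limit. The 0 min arrays of WSD1 read 3.88 to 3.94 in *stn7* and 3.67 to 4.05 in WT, near the lower end of the array's scale. AT5G44820, a sugar transferase gene, differed by 0.82 in *stn7* and 0.82 in WT on the member probe set. Another probe set of this gene gave 0.66 in *stn7* and 0.21 in WT, so that its 2 probe sets disagreed on the WT difference. The median 60 min minus 0 min difference of these 8 genes was 1.13 in *stn7* and 1.33 in WT. At 30 min, 50% or more of the change was present for 2 of 8 in *stn7* and 6 of 8 in WT.

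The last role group held 4 proteins known by their domains. AT5G52750 and AT1G51090 carry a heavy-metal-associated domain, AT4G34150 a calcium-dependent lipid-binding C2 domain, and AT5G35735 a membrane cytochrome b561 domain. AT5G35735, annotated as auxin-responsive, had log2 values in *stn7* of 7.92, 8.21 and 7.02 at 0 min, 8.83, 8.87 and 8.91 at 30 min, and 9.16, 8.97 and 8.98 at 60 min. The WT values were 7.28, 7.32 and 7.82 at 0 min, 8.70, 9.04 and 9.32 at 30 min, and 9.41, 9.55 and 9.78 at 60 min. The 3 times were apart in both genotypes, and the share of the change at 30 min was 87.3% in *stn7* and 73.5% in WT. The difference of AT5G52750 was 1.03 in *stn7* and 1.22 in WT, that of AT1G51090 was 0.85 in *stn7* and 1.85 in WT and that of AT4G34150 was 0.82 in *stn7* and 1.46 in WT. The median 60 min minus 0 min difference of these 4 genes was 0.94 in *stn7* and 1.65 in WT, with 50% or more of the change present at 30 min for 3 of 4 in *stn7* and 4 of 4 in WT.

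The other 14 members with 1 gene were placed in no role group. Among them are TRM18, of a family that recruits proteins to cortical microtubules (0.996 in *stn7* and 1.11 in WT), and AT4G30400, a RING-H2 finger protein gene (0.86 in *stn7* and 1.05 in WT). AT3G15310 had log2 values in *stn7* of 5.12, 4.998 and 4.72 at 0 min, 6.30, 6.06 and 5.94 at 30 min, and 6.43, 6.998 and 6.76 at 60 min. WT arrays gave 5.29, 4.77 and 4.88 at 0 min, 5.79, 6.61 and 6.31 at 30 min, and 6.28, 6.69 and 6.63 at 60 min. Its 30 min arrays lay above all 0 min arrays in both genotypes and overlapped the 60 min arrays in WT. AT2G39650, a gene of the DUF506 family, had 6.60, 6.93 and 6.07 at 0 min, 7.28, 7.23 and 7.08 at 30 min, and 7.63, 7.61 and 7.94 at 60 min in *stn7*. In WT it had 6.12, 6.24 and 6.19 at 0 min, 6.67, 6.94 and 6.89 at 30 min, and 7.59, 7.52 and 8.36 at 60 min. The 3 times of AT2G39650 were apart in both genotypes. AT1G19020 differed by 1.002 in *stn7* and 2.21 in WT, and AT2G25735 by 0.97 in *stn7* and 1.72 in WT. The others were AT2G19650, AT3G57450, AT1G19380, AT4G24380 and AT5G03120, with differences of 0.86 to 1.08 in *stn7* and 1.01 to 1.29 in WT, and AT1G30250, AT1G16500 and AT3G28270, which are described below.

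**Figure D2:**
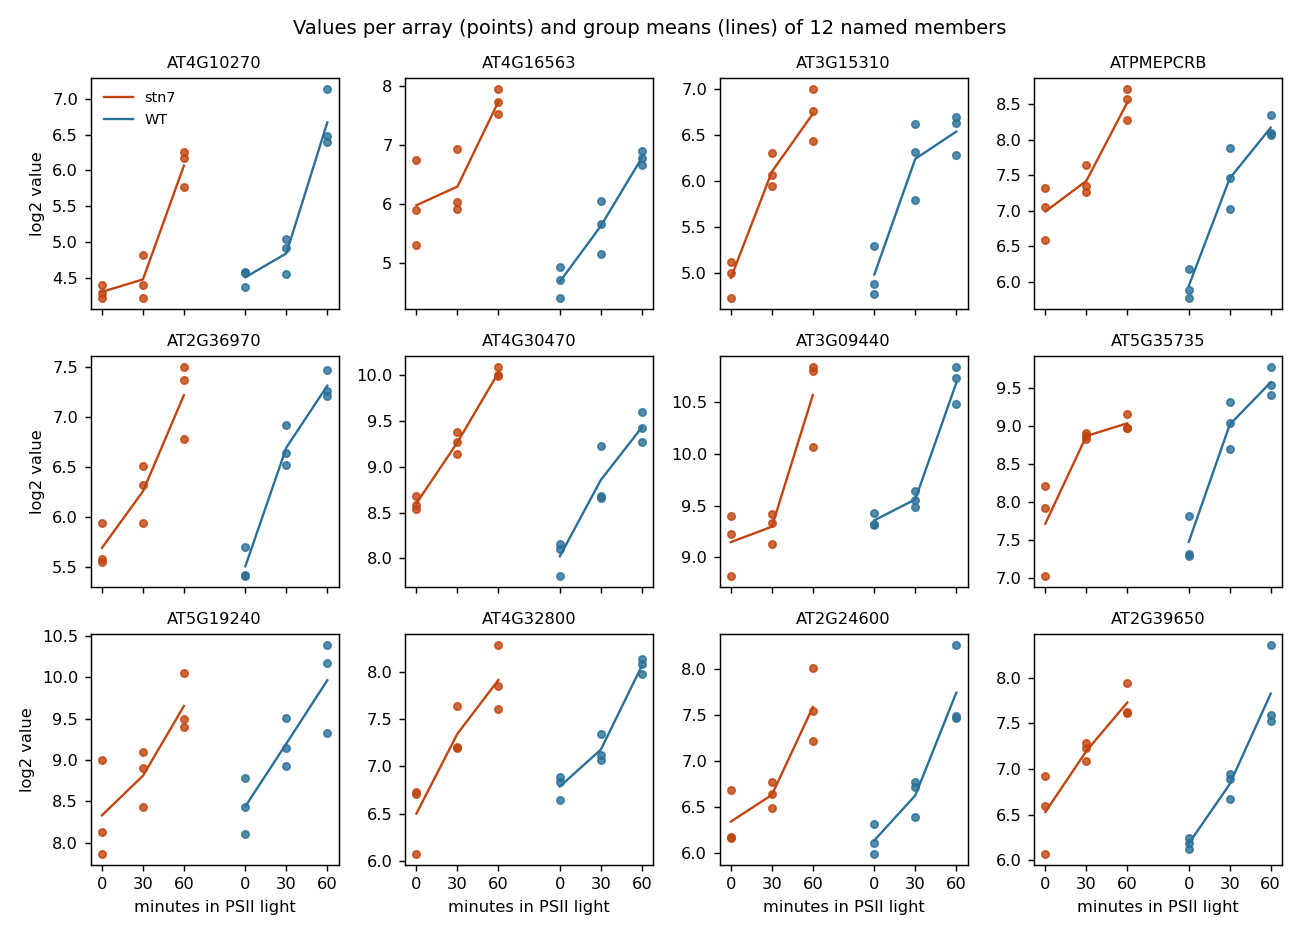
Log2 values per array (points, n = 3 per group) and group means (lines) against minutes in PSII light for the 12 members with 1 gene that had the largest smaller difference of the 2 genotypes, with *stn7* left of WT in each panel. AT4G10270 and AT3G09440 stayed near their 0 min level at 30 min in both genotypes, whereas AT5G35735 and AT3G15310 had most of their change by then.

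The 30 min arrays took no part in choosing the members, and they show how far each change had come. The change at 30 min was a median of 45.2% of that at 60 min in *stn7*, with quartiles of 28.2% and 62.5%. In WT the median was 46.5%, with quartiles of 28.6% and 57.7%. At least 50% of the change was present for 64 of 145 members in *stn7* and 58 in WT. This held in both genotypes for 28 members, in *stn7* alone for 36, in WT alone for 30 and in neither for 51. Of the 51 members with 1 gene the counts were 13, 7, 14 and 17 in the same order. The share uses the 0 and 60 min means as well, and it moves with them. Without WT 0 min replicates 1 and 3 the WT count was 69 and the WT median share 48.7%. The 13 named genes with 50% or more in both genotypes were AT3G15310, AT5G35735, AT1G30250, AT5G41900, AT5G52750, TRM18, AT2G39710, AT1G16500, AT1G76360, AT4G30400, AT4G34950, AT4G34150 and WSD1. Set against WT 0 min replicate 2 alone, AT4G34950 and WSD1 fell below 50% in WT. AT3G28270, with 58.9% in *stn7*, then reached 52.6% in WT.

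**Figure D3:**
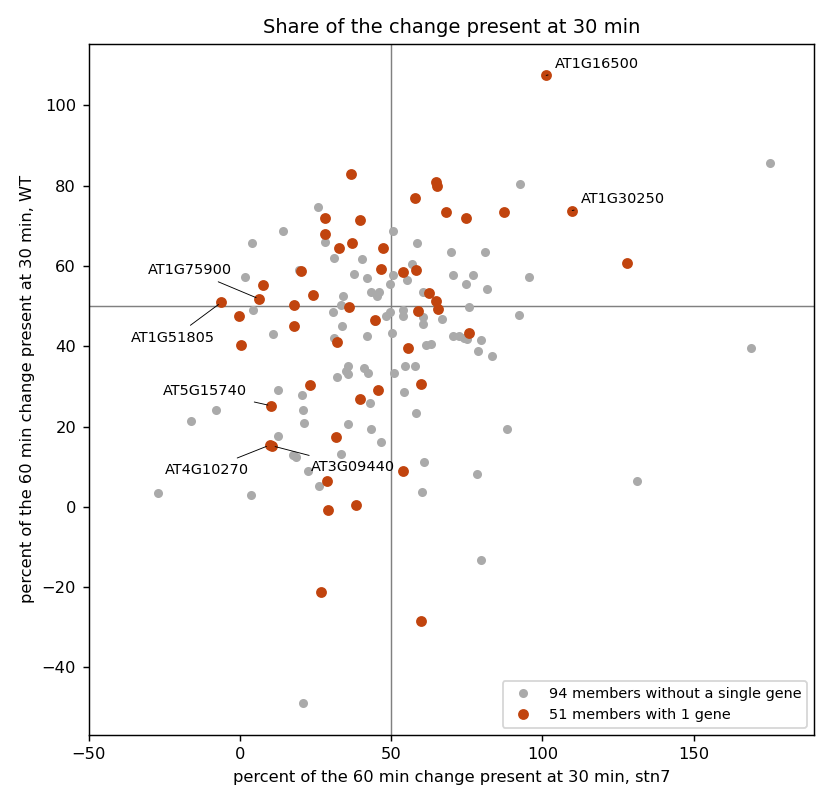
Percent of the 60 min change that was present at 30 min in *stn7* (horizontal axis) and in WT (vertical axis) for each of the 145 members, with lines at 50%. Points lie on both sides of both lines, with 28 members at or above 50% in both genotypes and 51 below it in both.

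Whether a member stood above or below the midpoint of its change was tested with the 30 min mean minus the average of the 0 and 60 min means. This contrast is uncorrelated with the difference that chose the members when the groups vary equally. The median SD of the members was 0.30 at 0 min and 0.21 at 60 min in *stn7*, and 0.19 at both times in WT, so that some correlation is left in *stn7*. In *stn7*, 5 of 145 members lay above their midpoint at 30 min and 9 below it (limma, adjusted p under 0.05 over all 22746 probe sets). Over all probe sets 5.39% lay above and 4.17% below, against 3.45% and 6.21% of the members. The split was 4 above and 13 below with quantile normalization, and 5 above and 16 below with each array centred on the same median. Shares of all probe sets under these scalings are not given here, and nothing is read from the change of the split.

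Above the midpoint in *stn7* were AT1G30250, by 0.65 ± 0.17 (limma adjusted p = 0.0231), and AT1G16500, by 0.45 ± 0.11 (limma adjusted p = 0.0203). AT1G30250 had log2 values in *stn7* of 7.44, 6.85 and 6.67 at 0 min, 8.56, 7.91 and 8.07 at 30 min, and 8.09, 8.06 and 8.07 at 60 min. Its values in WT were 6.93, 6.60 and 7.36 at 0 min, 8.13, 7.98 and 8.02 at 30 min, and 8.56, 8.42 and 8.30 at 60 min. In *stn7* its 30 min arrays covered the whole 60 min range, and in WT they lay just below it. AT1G16500 had 7.13, 7.08 and 6.57 at 0 min, 7.75, 7.83 and 7.90 at 30 min, and 7.82, 7.86 and 7.76 at 60 min in *stn7*. In WT it had 6.39, 6.56 and 6.83 at 0 min, 7.92, 8.05 and 7.91 at 30 min, and 7.78, 7.96 and 7.86 at 60 min. The change of AT1G16500 was complete at 30 min in both genotypes, with 30 and 60 min arrays that overlapped.

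Below the midpoint in *stn7* were the wound-responsive gene AT4G10270 (-0.71 ± 0.16, limma adjusted p = 0.015) and the chaperone gene AT3G09440 (-0.56 ± 0.15, limma adjusted p = 0.0277). So were AT5G15740 of pectin synthesis (-0.38 ± 0.10, limma adjusted p = 0.0226), the lipase gene AT1G75900 (-0.37 ± 0.11, limma adjusted p = 0.04) and the receptor kinase gene AT1G51805 (-0.46 ± 0.14, limma adjusted p = 0.0404). The other 7 calls were probe sets with no listed gene, 3 above and 4 below. The lowest of these, 249765_at, had values in *stn7* of 5.71, 5.67 and 5.05 at 0 min, 5.55, 4.89 and 4.97 at 30 min, and 8.04, 7.13 and 7.50 at 60 min. In WT it had 4.58, 4.29 and 4.87 at 0 min, 4.75, 4.64 and 4.94 at 30 min, and 5.58, 5.46 and 5.46 at 60 min. None of its 30 min arrays in *stn7* lay above the 0 min range, and the difference from the midpoint was -1.38 ± 0.19 (limma adjusted p = 0.000791).

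In *stn7* only 249765_at passed without each array in turn. Without *stn7* 30 min replicate 3 it was the only call, without *stn7* 30 min replicate 2 there were 4, and with the 3' to 5' difference as a covariate 2, neither of which was one of the 7 named genes. Shares of all probe sets in these fits are not given here, and nothing is read from the changes of the count. With the within-group component as a covariate, AT4G10270, AT1G75900, AT1G51805, AT1G30250 and AT1G16500 were no longer called. The mean scores used for this covariate were -2.9, -15.4 and 15.1 at 0, 30 and 60 min in *stn7*. The covariate therefore shifts the differences between times as well as those between replicates. With only the *stn7* arrays AT3G09440, AT1G75900, AT1G51805, AT1G30250 and AT1G16500 were not called. Leaving out 1 array raised the adjusted p at most to 0.144 without *stn7* 30 min replicate 3 for AT4G10270, 0.141 without *stn7* 30 min replicate 2 for AT3G09440, 0.175 without *stn7* 30 min replicate 3 for AT5G15740, 0.292 without *stn7* 30 min replicate 3 for AT1G75900 and 0.226 without *stn7* 30 min replicate 3 for AT1G51805. For AT1G30250 it reached 0.103 without *stn7* 30 min replicate 1, and for AT1G16500 0.143 without *stn7* 30 min replicate 3 (limma in each case).

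In WT, 1 member lay above its midpoint at 30 min and 4 below it, which is 0.69% and 2.76% of the members. Over all probe sets 0.778% lay above and 0.87% below. AT1G16500 lay above by 0.73 ± 0.11 (limma adjusted p = 0.00833). AT4G10270 lay below, with a difference of -0.75 ± 0.16 (limma adjusted p = 0.0341). Of the other 3, 2 had no listed gene and 1 had several genes. The several-gene member, 262911_s_at, was annotated to AT1G59860 and AT1G07400. It differed by 1.64 in *stn7* and 0.98 in WT between 60 and 0 min. Its WT mean at 30 min lay below that at 0 min (-49.0% of the change). The difference from its WT midpoint was -0.97 ± 0.23 (limma adjusted p = 0.046), a call lost without 11 of the 18 arrays in turn. Against the single WT 0 min array left without replicates 1 and 3 only AT1G16500 was called. The mean scores on the within-group component were 32.9, -14.8 and -14.9 at 0, 30 and 60 min in WT, so that as a covariate they also shift differences between times. With the 3' to 5' difference or the within-group component as a covariate AT1G16500, AT4G10270 and 262911_s_at were not called. Without WT 30 min replicate 2 or 3 there were 0 calls. In both of these fits without a 30 min array, 26 members had an unadjusted p under 0.05 (limma). No share of all probe sets is given beside the 26, and nothing is read from it. Without WT 30 min replicate 1, WT 0 min replicate 1 or WT 60 min replicate 3 there were 2 calls. Leaving out WT 0 min replicate 3, WT 60 min replicate 2 or *stn7* 30 min replicate 2 gave 3. The count was 10 without WT 0 min replicate 2 and 9 without *stn7* 60 min replicate 1. Shares of all probe sets in these fits are not given here, and the changes of the count are not read as results about the members.

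The mid-course levels were then compared between the genotypes, as the *stn7* value minus the WT value. None of the 145 members passed (limma, lowest adjusted p = 0.411, with 24 at an unadjusted p under 0.05), and over all probe sets 0.0044% did in each direction. The share of all probe sets to set beside the 24 is not given here, and nothing is read from that count. The differences ran from -1.12 to 1.27 log2 units with a median SE of 0.22. For BIC2 (AT3G44450) the difference was -0.49 ± 0.27 (limma adjusted p = 0.784), and for AT1G61890 it was 0.49 ± 0.22 (limma adjusted p = 0.727).

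**Figure D4:**
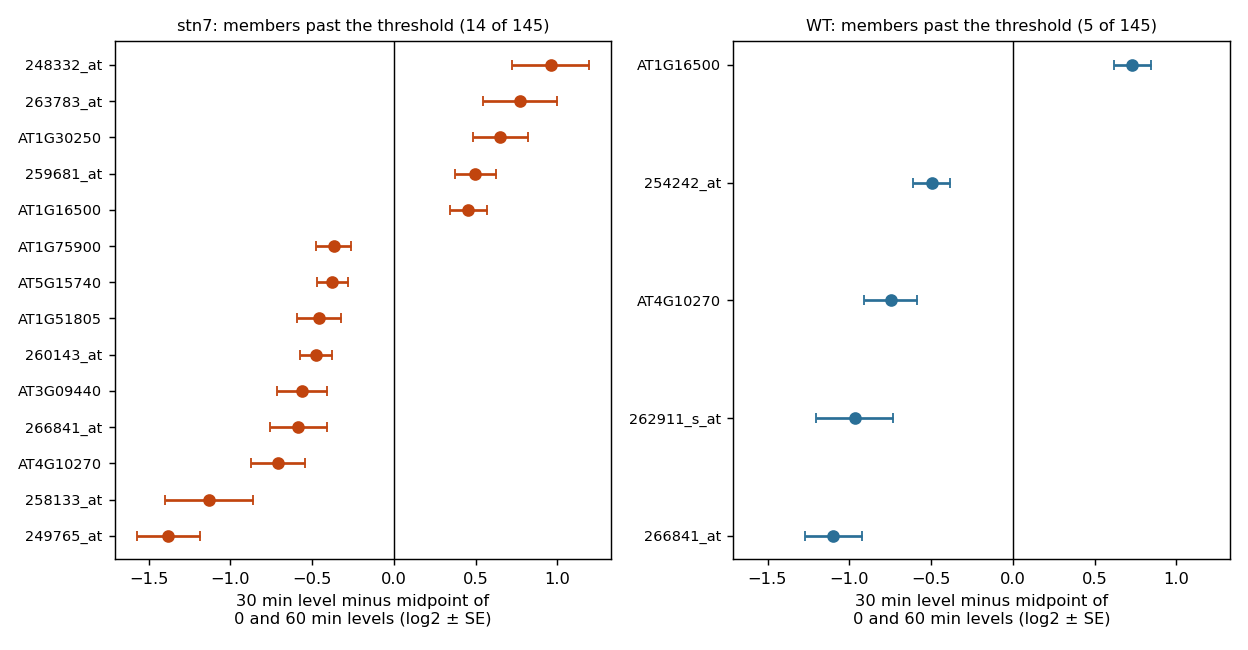
Members whose 30 min level differed from the midpoint of their 0 and 60 min levels (limma adjusted p under 0.05), in *stn7* (left) and WT (right). Points are log2 differences and bars their SE, and values above 0 mean that more than 50% of the change was present at 30 min. AT1G16500 was above and AT4G10270 below the midpoint in both genotypes.

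The last comparison asked whether the members stood at different levels in *stn7* and WT at 30 min. In *stn7*, 8 of 145 members were higher (limma adjusted p under 0.05) and 0 lower, which is 5.52% and 0%, against 1.05% higher and 0.73% lower over all probe sets. In either direction 40 members had an unadjusted p under 0.05. With each array centred on the same median 5 were higher and 2 lower. The matching shares of all probe sets are not given here for these counts, and nothing is read from them. The median difference of the members was 0.15, against -0.01 for all probe sets. It was positive for 99 of 145 (68.3%), against 48.3% of all probe sets. All 3 *stn7* arrays lay above all 3 WT arrays for 40 members (27.6%) and below them for 12 (8.28%). Over all probe sets these shares were 11.2% and 10.7%. The members were also mostly higher in *stn7* before the shift. At 0 min the *stn7* mean was the higher for 106 of 145, with a median difference of 0.21, against -0.05 for all probe sets. Without WT 0 min replicates 1 and 3 it was the higher for 116, with a median of 0.29. The 0 min arrays helped to choose the members, so that this is a description.

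Of the 8 members higher in *stn7* at 30 min, 2 carried a gene. AT3G28270, of a plant protein family with the DUF677 domain, had log2 values in *stn7* of 5.96, 5.66 and 6.34 at 0 min, 7.05, 7.19 and 6.87 at 30 min, and 7.60, 7.76 and 7.96 at 60 min. In WT they were 5.62, 5.39 and 5.37 at 0 min, 5.98, 5.93 and 5.77 at 30 min, and 6.47, 6.36 and 6.23 at 60 min. The *stn7* arrays were above the WT arrays at every time. At 30 min the difference was 1.14 ± 0.14 (limma adjusted p = 0.000912), beside 0.53 at 0 min and 1.42 at 60 min. It stayed past the threshold without each array in turn. The efflux gene AT1G61890, whose values are given above, was higher in *stn7* at 30 min by 0.77 ± 0.18 (limma adjusted p = 0.04), in 3 of 3 arrays. Its difference was -0.09 at 0 min and 0.66 at 60 min. This call was lost with array centring and without 8 of the 18 arrays in turn, at most to 0.133 without *stn7* 30 min replicate 2 (limma). The unlisted probe set 263421_at had 30 min values of 11.19, 10.63 and 10.76 in *stn7* and 9.71, 10.07 and 10.11 in WT, a difference of 0.89 ± 0.16 (limma adjusted p = 0.00874) that passed without each array in turn. The count of 8 was 2 without WT 30 min replicate 1 or *stn7* 30 min replicate 3, and 3, 4 and 5 without WT 30 min replicate 2 and *stn7* 30 min replicates 1 and 2. These counts too are given without shares of all probe sets, and nothing is read from their changes.

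**Figure D5:**
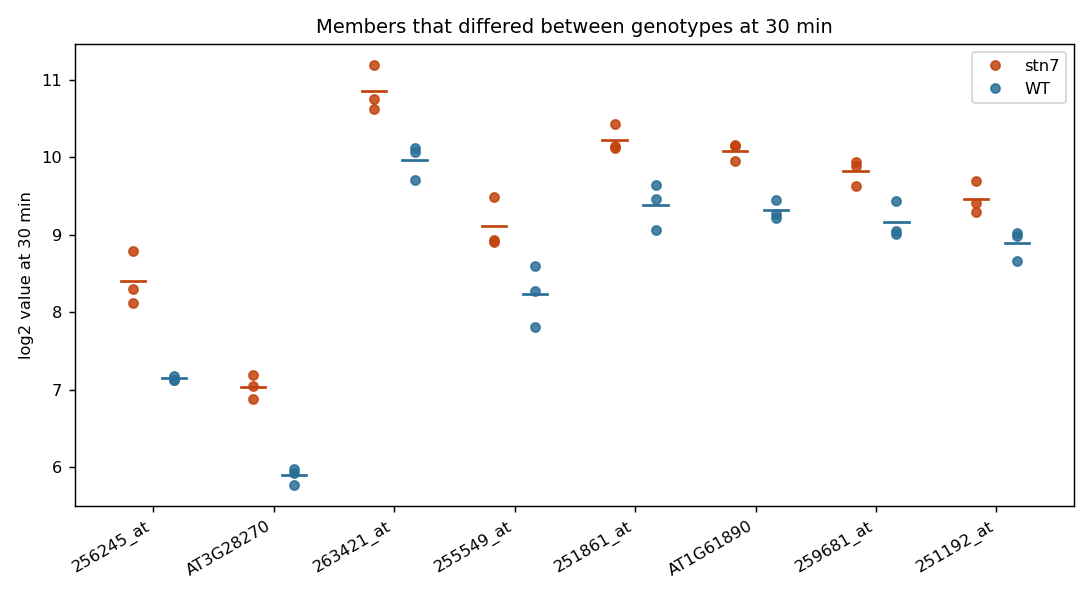
Log2 values at 30 min of the 8 members that differed between the genotypes (limma adjusted p under 0.05), with *stn7* left of WT for each. Points are arrays and bars are group means (n = 3 each), and all *stn7* points lie above all WT points of the same member.

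Related pathways were looked up through 11 lists of 162 genes in all, covering touch and calcium, rapid stress regulators, low oxygen, heat shock, flavonoids and photoprotection, the clock, jasmonate, ethylene, salicylate defence, brassinosteroid with the EXORDIUM family, and glutathione and glucosyl transfer. Only 14 of these genes had an annotated probe set, and 1, AT4G10270 of the low oxygen list, was a member. The lists of rapid stress regulators, jasmonate and brassinosteroid with the EXORDIUM family had no annotated gene. The other measured low oxygen gene, AT4G33560, also a wound-responsive protein gene, differed by 0.30 in *stn7* and 0.53 in WT between 60 and 0 min. The chaperone gene HSP22 (ATHSP22.0) differed by -0.01 in *stn7* and 0.03 in WT, with group means of 4.08 to 4.28, near the lower end of the array's scale. Of the 3 touch and calcium genes, CML23 differed by 0.25 in *stn7* and 0.83 in WT, CML37 by 0.26 in *stn7* and 0.58 in WT, and CML39 (AT1G76640) by 0.80 in *stn7* and 0.18 in WT. The clock gene GI differed by 0.61 in *stn7* and 0.11 in WT, and at 30 min it lay above its *stn7* midpoint by 0.36 (limma adjusted p = 0.0189). EIN3, the ethylene transcription factor, differed by -0.18 in *stn7* and -0.14 in WT and also lay above its *stn7* midpoint, by 0.35 (limma adjusted p = 0.0456). SAG101, a partner of immune regulators in salicylate defence, differed by 0.44 in *stn7* and 1.097 in WT. DFR and UGT84A1 of the flavonoid list, and GSTU25, UGT73B5 and UGT73B4 of the last list, differed by -0.28 to 0.07 in *stn7* and by -0.20 to 0.80 in WT. Of the 14 genes, 2 lay above and 1 below the *stn7* midpoint and 1 below the WT midpoint (limma), with both calls below made for AT4G10270, and the 4 tests made no other call among them.

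The 51 named members lay on all 5 nuclear chromosomes of the RefSeq annotation (assembly TAIR10.1), with 13, 11, 6, 12 and 9 on chromosomes 1 to 5. Their median gene length there was 1998 bases, against 2118 for the 13415 nuclear genes with a named probe set. Within 10 protein-coding genes of each other lay 2 pairs, AT4G30470 with AT4G30400, and AT2G39650 with AT2G39710. The median difference of the unlisted members was 1.14 in *stn7* and 1.29 in WT, beside 1.002 in *stn7* and 1.26 in WT for the members with 1 gene.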

How the data were processed

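RNA of 18 leaf pools was hybridised to Affymetrix ATH1 arrays, labelled with the 3' IVT Express kit per the labels. The deposited values are log2 expression values of 22810 probe sets, made by the authors with RMA, and the submitters' processing notes name GCOS and Affymetrix Expression Console 1.1. RMA equalises arrays at the level of probes and then summarises each probe set, which compresses differences of dim probe sets. The medians of the deposited arrays still differed, and centring was tried as an alternative. No read depth applies, and the precision is limited by the 3 arrays per group.

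The 64 control probe sets were removed and 22746 kept without a filter on signal. Groups followed the sample labels. Group means gave the members, and limma 3.58.1 in R 4.3.3 (lmFit, eBayes, 1 mean per group over 18 arrays, two-sided) gave 4 contrasts with Benjamini-Hochberg adjustment over all 22746 probe sets and a threshold of 0.05. The residual and prior information came to 17.8 degrees of freedom in all. The change at 60 min was not tested, because the rule used it. Probe sets were named from GEO's platform annotation and updated through the RefSeq table of assembly TAIR10.1: 13513 probe sets had 1 gene, 503 several and 8730 none. The members, gene lists and tests were chosen with earlier results of these data known.

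Named members are the 12 with the largest smaller change, those called in a test, those in a gene list and those nearest to the limit, with role groups added after the members were known. The tests were also tried on simulated data with 200 known changes in the *stn7* 30 min arrays. At a log2 change of 0.5 the *stn7* mid-course test recovered 109 of 200 and the 30 min genotype test 89. At a log2 change of 1 they recovered 190 and 186, so that many smaller differences would be missed. False calls numbered 10 and 6 at 0.5, and 5 and 11 at 1. The changed probe sets were drawn from all 22746, and the simulated noise was independent between probe sets. Replicates of the members varied more than those of all probe sets, so that these rates need not hold for the members. The alternatives were 2 other normalizations, a signal filter at the 30th percentile, another variance model, array weights, the replicate number as a block, fewer arrays, a limit of 1.0, and each array left out. After the data were seen, 3 more were added: leaving out WT 0 min replicates 1 and 3, the within-group component as a covariate, and the 3' to 5' difference as a covariate. Scores on the within-group component also differed between groups, so that this covariate adjusts for more than differences between replicates. The replicate pools are biological replicates per the labels, but whether they were grown separately is not stated. A motif search of promoters was planned and not run, because promoter sequence was not used here.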

Additional observations from a re-analysis of the deposited data

How the results depend on the processing

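Of the calls of single members, the direction was the same under every alternative, with 585 alternative results on the same side of the threshold, 169 no longer past it and 0 reversed. The 14 members off the *stn7* midpoint became 30 with array weights, 9 with only the *stn7* arrays, 9 with the within-group component as a covariate and 2 with the 3' to 5' difference as a covariate, and ran from 1 to 17 without single arrays. The 5 off the WT midpoint became 11 with array weights, 3 with the replicate block, 10 with only the WT arrays, 1 without WT 0 min replicates 1 and 3 (1 array left in that group), 1 with the within-group component and 0 with the 3' to 5' difference (limma, 28 at an unadjusted p under 0.05), and ran from 0 to 10 without single arrays. The genotype difference in mid-course level gave 0 calls under all 27 alternatives. Shares of all probe sets under the alternatives are not given here, neither for the calls nor for the 28 at an unadjusted p. Changes of these counts are therefore not read as results about the members. The 8 members that differed at 30 min became 13 with array weights and 16 with the within-group component, and ran from 2 to 9 without single arrays. A limit of 1.0 left 69 of the 145 members, and leaving out single arrays gave 112 (without *stn7* 0 min replicate 3) to 190 members (without *stn7* 0 min replicate 2). Without single arrays, members with at least 50% of the change at 30 min ran from 49 to 77 in *stn7* and from 51 to 76 in WT. The causes were not tested. Replicate numbers did not pair the samples. Deviations of same-numbered arrays correlated between -0.41 and 0.33 (median -0.07 over 45 pairs, 13 of them over 0.1), and 2 of 18 arrays correlated best with their own number. With the replicate block the counts were 13 in *stn7*, 3 in WT, 0 for the genotype difference and 6 at 30 min. Among members with 1 gene the block ended the *stn7* midpoint call of AT1G51805 (limma adjusted p = 0.0541) and the 30 min call of AT1G61890 (limma adjusted p = 0.0568). The WT midpoint call of 262911_s_at was also lost with it. With 3 arrays per group, differences near the median SE were not resolved.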

Other observations

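Replicate pools varied more for the shared rises than for probe sets at large. The median within-group SD of the members was 0.30, 0.21 and 0.21 log2 units at 0, 30 and 60 min in *stn7*, against 0.14, 0.12 and 0.13 for all probe sets. In WT it was 0.19, 0.20 and 0.19, against 0.14, 0.13 and 0.11. These are descriptions, since the 0 and 60 min arrays chose the members.

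A few members did not follow a steady course. The 30 min mean lay below the 0 min mean for 5 members in *stn7* and 5 in WT, and above the 60 min mean for 6 in *stn7* and 1 in WT. Under 10% of the change was present at 30 min for 13 members in *stn7* and 15 in WT.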
